A study of Drosophila melanogaster with 2 samples.

Results

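The regions described here are 1175 binding sites of the Drosophila protein CG10147 that lie just upstream of a protein-coding start, with no such start of another gene facing them from the opposite strand. They were taken from the authors' list of 4576 reproducible peaks (IDR list). A summit, the highest point of a peak, was kept when it lay within 500 bp of a protein-coding transcription start site (TSS) and upstream of the nearest such site or at it. A summit was dropped when a protein-coding TSS of another gene on the opposite strand also lay within 500 bp. The 1175 members made up 25.7% of the list. The remaining peaks comprised 779 at divergent promoters, 352 downstream of the start at non-divergent promoters and 2270 more than 500 bp from any protein-coding TSS.

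The material was whole embryos of both sexes, collected over the first day of development (0-24 hours), of 1 transgenic line that stably carries CG10147 with a C-terminal GFP tag. Chromatin fragmented by sonication was precipitated with an antibody to GFP and sequenced. There was 1 group with 2 biological replicates, numbered 2 and 3, and no second genotype, stage or treatment. Embryos were not sorted, so a site bound in few cells cannot be told apart from one bound weakly in many.

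CG10147 belongs to the zinc finger proteins with an N-terminal ZAD domain, a large family in insects, many of whose members bind DNA. A promoter that faces no other promoter drives transcription in a single direction, whereas a divergent promoter has starts on both strands and a shared stretch between them. Housekeeping promoters in Drosophila often carry the site of Dref (DNA replication-related element factor), or motif 1, which the factor M1BP binds. Regulated promoters more often carry a TATA box or an initiator.

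The windows below show 4 of the strongest members, in places 2, 3, 5 and 6 by signal. Those in places 1 and 4, mRpL41 and px, are not shown. In the 200 bases around their summits GC content was 26.5% at mRpL41 and 37% at px. Each window shown is 100 bases around the summit on the gene's strand, 5′ to 3′. The sequence is from the Release 6 genome (dm6), with the longest unbroken run of A and T in capitals. They come from CG14100 (chr3L:19590565-19590664, minus strand), the UDP-galactose transporter gene Ugalt (chrX:2703830-2703929, minus strand), the solute transporter gene SLC5A11 (chr2L:8205256-8205355, minus strand) and the glycolytic gene Gapdh2 (chrX:15867908-15868007, plus strand).
CG14100: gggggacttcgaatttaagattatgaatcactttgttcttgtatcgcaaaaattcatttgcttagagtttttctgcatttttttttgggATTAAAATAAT
Ugalt: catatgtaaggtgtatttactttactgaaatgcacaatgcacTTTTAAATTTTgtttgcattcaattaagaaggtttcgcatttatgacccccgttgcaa
SLC5A11: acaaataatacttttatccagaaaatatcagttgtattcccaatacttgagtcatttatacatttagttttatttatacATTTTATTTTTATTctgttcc
Gapdh2: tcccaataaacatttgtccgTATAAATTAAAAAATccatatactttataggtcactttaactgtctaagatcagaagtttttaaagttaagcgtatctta
The GC content of these 100 bases was 29% at CG14100, 33% at Ugalt, 22% at SLC5A11 and 27% at Gapdh2. None of the 4 stretches contains the Dref site.

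A second set of members did carry it. These stretches show the Dref palindrome TATCGATA in capitals at the gene for translation elongation factor eEF1gamma (chr3R:29220105-29220164, plus strand), the ribosomal protein gene RpS10b (chrX:19597928-19597987, plus strand) and the Hippo pathway gene kibra (chr3R:14724316-14724375, minus strand). RpL37A (chr2L:5070964-5071023, plus strand) carries GGTCACAC, the core of motif 1, also in capitals.
eEF1gamma: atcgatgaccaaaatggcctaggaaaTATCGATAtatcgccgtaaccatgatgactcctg
RpS10b: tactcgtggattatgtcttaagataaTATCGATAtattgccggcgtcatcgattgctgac
kibra: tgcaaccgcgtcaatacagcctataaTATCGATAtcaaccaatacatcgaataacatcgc
RpL37A: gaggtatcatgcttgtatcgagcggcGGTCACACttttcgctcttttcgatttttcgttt
The Dref site stood 8 bp downstream of the summit at eEF1gamma and at kibra and 9 bp upstream of it at RpS10b. Motif 1 stood 4 bp downstream of the summit at RpL37A. All 4 of these summits lay within 100 bp of the TSS, at 45 bp (eEF1gamma), 64 bp (RpS10b), 93 bp (kibra) and 10 bp (RpL37A). Of other strong members, RpL27 had the Dref site 10 bp downstream of the summit. It stood further away at -75 bp in CG11151, -78 bp in PlexA, 69 bp in Nsun5 and 70 bp in Irp-1A. Over all members, Dref sites numbered 17 at -100 to -50 bp from the summit, 26 at -50 to 0 bp, 15 at 0 to 50 bp and 23 at 50 to 100 bp. They were fewer further out, with 13 at -150 to -100 bp and 11 at 100 to 150 bp. Motif 1 had 3 sites at -100 to -50 bp, 4 at -50 to 0 bp, 10 at 0 to 50 bp and 20 at 50 to 100 bp. Dref sites were thus densest within 100 bp of the summit, on both sides of it. Within that range motif 1 lay mostly on the gene's side.

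The third set shows a 7-mer, CAGTGTA, which was picked out after 7-mers had been ranked by how much more often they occurred in member windows than in flanks. The stretches come from the galactosyltransferase gene C1GalTA (chr2L:8951252-8951291, minus strand), CG13921 (chr3L:1746824-1746883, plus strand), out (chrX:19322166-19322212, minus strand) and aru (chr2L:866098-866155, minus strand, where the 7-mer is on the other strand).
C1GalTA: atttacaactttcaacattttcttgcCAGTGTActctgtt
CG13921: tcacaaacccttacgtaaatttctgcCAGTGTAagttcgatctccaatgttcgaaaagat
out: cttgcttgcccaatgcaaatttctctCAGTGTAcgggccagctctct
aru: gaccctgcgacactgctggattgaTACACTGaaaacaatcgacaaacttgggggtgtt
C1GalTA, CG13921 and out show a T-rich stretch before the 7-mer, and aru shows the complementary A-rich stretch after it. Over all 69 occurrences in member windows, T made up 52.0% of the 8 bases before the 7-mer and 25.9% of the 8 bases after it.

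Members carried more signal than the rest of the list. Signal is the value the authors' peak caller gave each peak, in their units, from both libraries pooled. The median was 250.3 in members (quartiles 182.2 and 411.2), against 223.6 in the 3401 other peaks (quartiles 174.5 and 333.8). Downstream summits had a median of 187.0, distal summits 221.6 and divergent promoters 262.1. The ratio of the medians of members and divergent promoters was 0.955, but it was 1.01 when an opposite-strand TSS within 1000 bp dropped a summit and 1.08 among the strongest 2288 peaks of the list. Members held 10 of the 25 strongest peaks and 380 (32.3%) had signal above the third quartile of the list, against 764 (22.5%) of the other peaks. Peaks are not replicates, pooled signal has no replicate error and the read depth is unknown. With 1 group, no test over samples is possible, so the comparisons are given as values with their spread and, for shares, an exact Clopper-Pearson 95% interval that covers counting error only.

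Most members were present in both libraries. A summit in each replicate's own list of 30000 peaks lay within 100 bp for 1062 members (90.4%, interval 88.6 to 92.0%). This was close to the 90% of all IDR peaks. Another 72 members were matched in replicate 3 only, 40 in replicate 2 only, and 1 in neither. In the stricter comparison with the strongest 4576 peaks of each replicate, 791 members (67.3%, interval 64.6 to 70.0%) were matched in both, against 61.6% of all IDR peaks and 59.6% of the other peaks. The IDR list was itself chosen for agreement between these libraries, so these shares describe the members and are not independent evidence of binding. The 2 signals of a member followed each other with a Spearman's rho of 0.73 across 1062 members, against 0.60 across 3055 other peaks. Each correlation is across peaks of the same 2 libraries and is a description only.

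**Figure D1:**
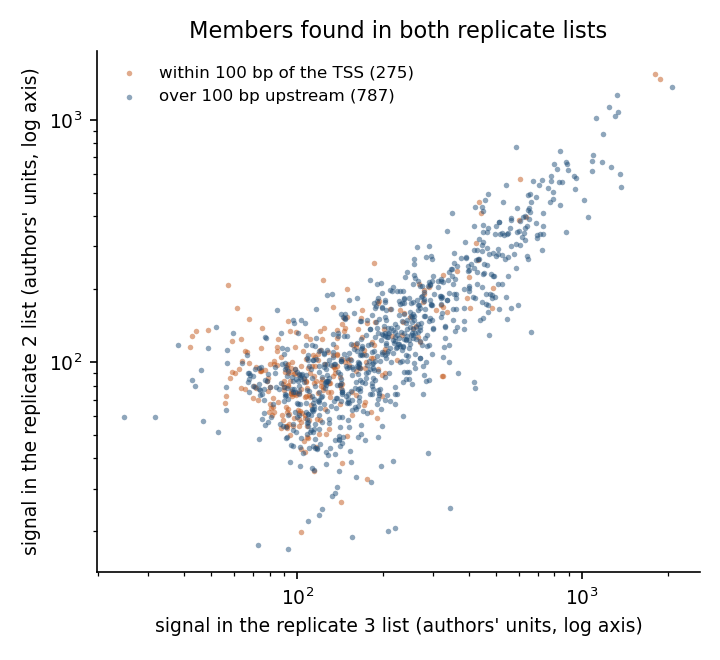
Signal in the replicate 2 list (vertical, log axis) against signal in the replicate 3 list (horizontal, log axis) for the 1062 members matched in both. Each point is 1 member, coloured by whether its summit lay within 100 bp of the TSS (275 members) or further upstream (787 members); the scatter is widest among the weak members.

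The strongest members ranked high in both libraries. The 25 with the highest pooled signal, between 1451 and 3338, all ranked 168th or better in replicate 2 and 65th or better in replicate 3. They were picked by the pooled signal of these same libraries, so high ranks follow largely from the choice. The strongest was mRpL41, a gene for a protein of the large mitochondrial ribosomal subunit (chr2R:15217572-15217934), with a signal of 1371 in replicate 2 and 2079 in replicate 3. Its summit lay 137 bp upstream of the TSS. CG14100 had 1471 in replicate 2 and 1887 in replicate 3, with its summit 91 bp upstream. Ugalt had 1539 in replicate 2 and 1808 in replicate 3, with its summit only 28 bp upstream. The units of the lists are separate, so the 2 values of a gene show its place in each list and not a difference between libraries.

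Of the 25, Gapdh2, Eno and Hex-A were on the list of glycolysis genes. Gapdh2, which encodes glyceraldehyde-3-phosphate dehydrogenase, had a pooled signal of 2346, with 1131 in replicate 2 and 1247 in replicate 3 and its summit 187 bp upstream. Eno, which encodes enolase, had 1827 pooled, 672 in replicate 2 and 1175 in replicate 3. Hex-A, a hexokinase gene, had 1495 pooled, 585 in replicate 2 and 937 in replicate 3. The mitochondrial acyl-CoA synthetase gene Acsf2 reached 1672 and the dihydropterin deaminase gene DhpD 1912.

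The other genes of the 25 had varied roles. The Polycomb group gene ph-p had a pooled signal of 2078 at a summit 480 bp upstream of the nearest TSS and within an intron of ph-p itself. The Nocturnin homologue cu, named for its curled-wing mutants, had 1849. The bZIP factor gene Atf3 had 1774, the RNA-binding protein genes msi and larp 1541 and 1521, and the casein kinase gene gish 1510. E23, which encodes an ABC transporter induced by ecdysone, had 1479. The remaining genes of the 25 were px, SLC5A11, CG18549, CG1635, CG31145, Fkbp14, Ptpmeg2, CG1888, C1GalTA and CG10527, between 1451 and 2594.

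Ranks differed between the libraries for some of the 25. C1GalTA ranked 168th in replicate 2 and 36th in replicate 3. DhpD ranked 93rd in replicate 2 and 14th in replicate 3, and CG1888 ranked 45th in replicate 2 and 65th in replicate 3. Members matched in 1 library only were weaker than these 25. RhoGAP93B, for example, with 481 pooled, was matched in replicate 2 at 280 and not in replicate 3.

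Members spread over the whole 500 bp. The median summit lay 180 bp upstream of the TSS (quartiles 95 and 285 bp), against 85 bp upstream at divergent promoters. These medians are unlike measures, since a divergent summit was measured from the nearer of opposing starts and could lie on either side of it. The rule itself therefore shortens the distance at divergent promoters. Counted in bins of 50 bp, the fullest bin held 185 members at 100 to 150 bp upstream, and the bin furthest upstream held 43. The 2 libraries placed their strongest sites differently. Of the members found by the same rule among the strongest 4576 peaks of each list, 412 of 1202 (34.3%) lay within 100 bp of the TSS in replicate 2, against 264 of 1167 (22.6%) in replicate 3. The members nearest to the limit on its inner side lay at 500 bp, at E(spl)m2-BFM (signal 184.9), dlg1 (302.2) and t-cup (153.6). The nearest on its outer side were CG12402 and CG3348 at 505 bp (317.1 and 578.1) and Boot at 506 bp (474.6).

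**Figure D2:**
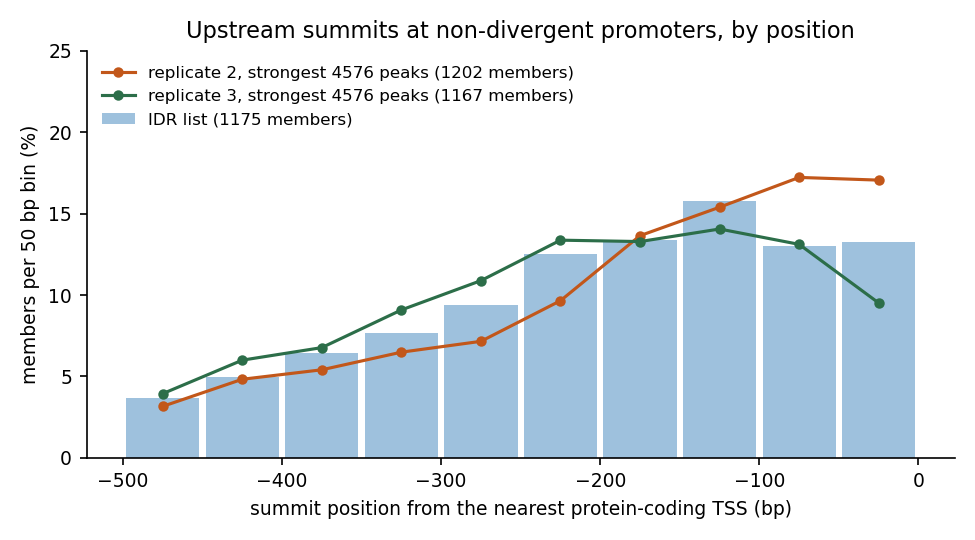
Percentage of members in each 50 bp bin (vertical) by summit position relative to the TSS (horizontal, upstream negative), as bars for the 1175 IDR members and as lines for the members among the strongest 4576 peaks of replicate 2 (1202) and of replicate 3 (1167). The replicate 2 line is highest within 100 bp of the TSS, where 34.3% of its members lie, against 22.6% in replicate 3.

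Members close to the TSS differed from those further upstream in signal, base content and motifs. The 309 members within 100 bp of the TSS (26.3%) had a median signal of 196.5, and the 866 members further upstream had 287.2. GC content in the 200 bp around the summit was 40.5% ± 7.41 in the near members and 33.0% ± 7.04 in the far members (SD over members). The Dref site TATCGATA occurred in 45 near windows (14.6%, interval 10.8 to 19.0%), against 27 far windows (3.12%, interval 2.06 to 4.50%). Motif 1 occurred in 23 near windows (7.44%), against 13 far windows (1.5%). The AT-rich 7-mer AAAATAT ran the other way, in 23% of near windows and 33.4% of far windows, and so did CAGTGTA, in 1.94% of near and 6.81% of far windows. The 100 bp boundary was set after the data had been seen.

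Part of that gradient is shared by promoters with no IDR summit. Windows of 200 bp were therefore read at matched distances from 8834 non-divergent first starts without one, called unoccupied here although weaker peaks below the IDR list may lie there. Centred 50 bp upstream, they had a GC content of 41.1% ± 8.72, close to the 40.5% of near members. Centred 250 bp upstream they had 37.2% ± 9.34, where members at 200 to 300 bp had 32.9% ± 7.41. The Dref site was in 14.6% of near members and in 5.08% of unoccupied windows at 50 bp. It was in 6.14% of members at 100 to 200 bp and in 2.34% of unoccupied windows at 150 bp. At 200 to 300 bp it was in 1.17% of members, and in 1.01% of unoccupied windows at 250 bp. CAGTGTA was highest at 300 to 400 bp, in 10.2% of members (interval 6.08 to 15.9%), against 1.87% of unoccupied windows at 350 bp. Its shares of members were 6.14% at 100 to 200 bp, 5.84% at 200 to 300 bp and 5.94% at 400 to 500 bp. Unoccupied windows had 1.99% at 150 bp, 1.86% at 250 bp and 1.83% at 450 bp. CAGTGTA was in 1.94% of near members, against 1.89% of unoccupied windows at 50 bp.

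**Figure D3:**
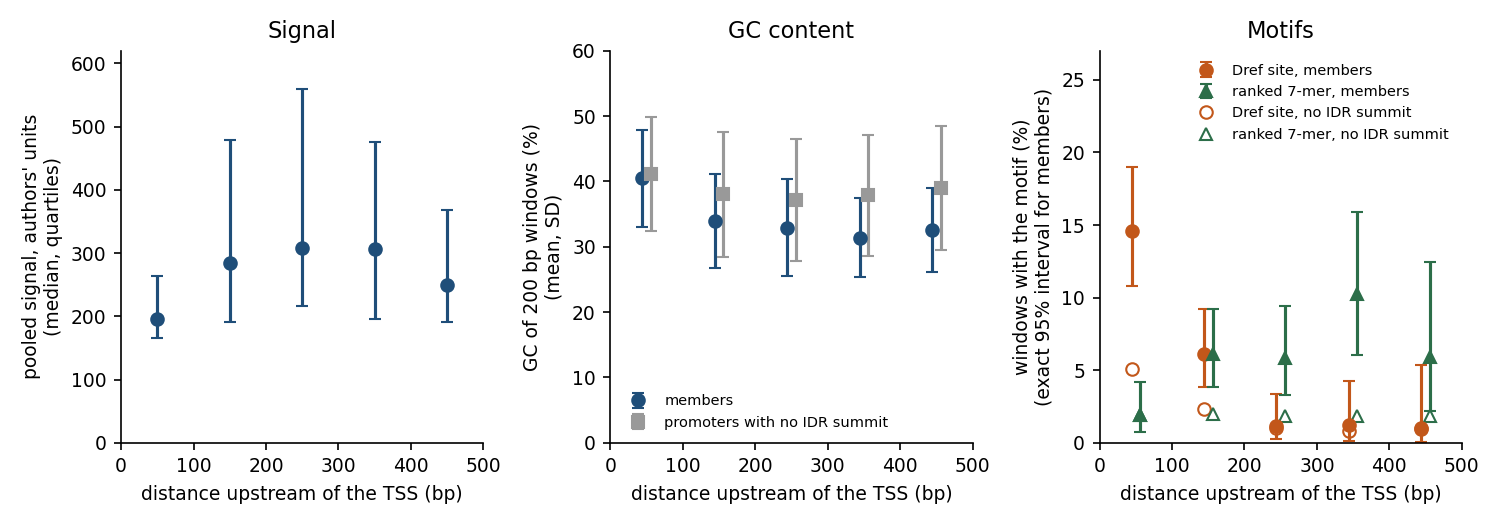
Pooled signal (median and quartiles, authors' units), GC content of 200 bp windows (mean and SD) and the share of windows with the Dref site or with the ranked 7-mer CAGTGTA (exact 95% intervals), each by distance upstream of the TSS in 100 bp bins. Filled symbols in colour are members; grey squares and open symbols are the 8834 promoters with no IDR summit, read at the middle of each bin. Signal is lowest (median 196.5) and the Dref share highest (14.6%) in the bin nearest the TSS.

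The near and far members kept these differences in each library's own list. Near members of replicate 2 had a GC content of 42.5% ± 7.85 and far members 34.6% ± 7.73. Near members of replicate 3 had 38.6% ± 7.28 and far members 32.2% ± 6.79. The Dref share was 13.1% near and 2.28% far in replicate 2, and 14.8% near and 2.33% far in replicate 3. The libraries differed in the ranks they gave. Of the near members matched in both lists, 152 of 275 (55.3%, interval 49.2 to 61.2%) ranked better in replicate 2. Among far members the figure was 308 of 787 (39.1%, interval 35.7 to 42.6%). Taken over all positions, the members of replicate 2 had a GC content of 37.3% ± 8.64 and those of replicate 3 had 33.6% ± 7.40. The part of GC content in the difference in rank was not tested.

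The summit of a member stood in a local dip of GC content. Member windows had 35.0% ± 7.87 GC (SD, n = 1175), against 42.0% ± 9.74 in windows 1000 bp upstream and 44.1% ± 9.89 in windows 1000 bp downstream. The value was below the mean of its own flanks in 936 members (79.7%, interval 77.2 to 81.9%) and in 24 of the strongest 25, with Ugalt the exception at 48.0% against 42.5% in its flanks. Divergent promoter windows had 33.5%, distal windows 33.9% and downstream windows 42.0%. Windows 180 bp upstream of unoccupied non-divergent promoters had 37.4% ± 9.53, nearer to the members than the flanks were. In 20 bp bins, these promoters had 36.9% at -190 bp from the TSS and 40.4% at -590 bp. Part of the dip is therefore shared by promoters with no IDR summit. Around member summits the lowest value of a 20 bp bin was 32.0%, just upstream of the summit. Content then climbed faster towards the gene, with 47.3% at 250 bp on that side and 38.8% at 250 bp on the other.

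**Figure D4:**
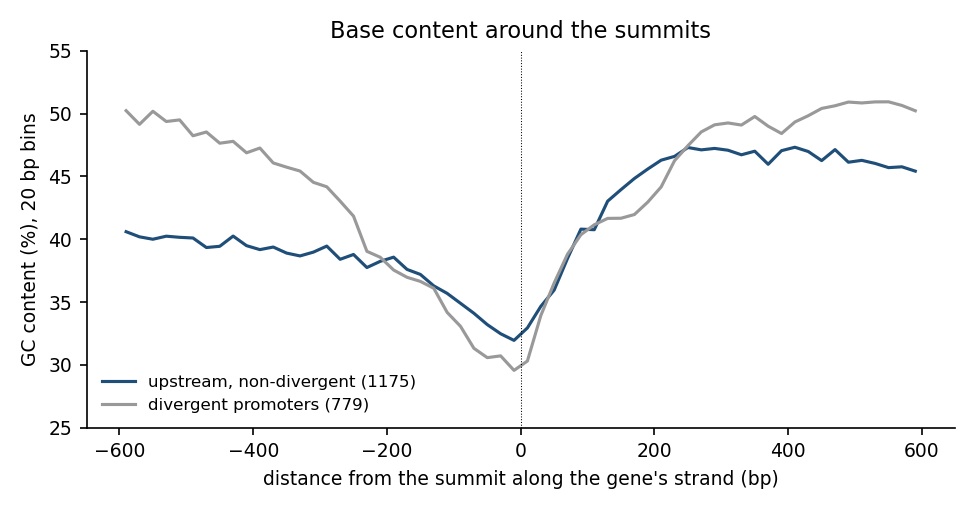
Mean GC content in 20 bp bins (vertical; the axis starts at 25%) by distance from the summit along the gene's strand (horizontal, the gene to the right). The blue line is the 1175 members and the grey line the 779 divergent promoter summits. Both dip at the summit, to 32.0% in members and 29.6% at divergent promoters, and divergent promoters are richer in GC beyond 250 bp upstream.

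The strongest members were the most AT-rich and the furthest upstream. Members were ordered by signal and cut at the quartiles into 4 groups. Mean GC content was 32.5% in the strongest group, 33.3% in the second, 36.2% in the third and 37.9% in the weakest. The median summit lay 211.5 bp upstream in the strongest group, 210 bp in the second, 149 bp in the third and 119 bp in the weakest. The longest unbroken run of A and T in a window had a median of 12 bases in members, against 9 in upstream flanks and 8 in downstream flanks. The median was 11 in windows 180 bp upstream of unoccupied promoters, 12 in distal windows, 14 at divergent promoters and 9 at downstream summits. A run of 20 bases or more was in 152 members (12.9%), near the 12.95% of distal windows. The share was 9.47% at unoccupied promoters, 18.6% at divergent promoters and 2.84% at downstream summits. A soft-masked repeat held the summit of 285 members (24.3%), a share that was not measured for other windows. The share of members matched in the strongest peaks of both replicates was lower in each weaker group, at 98.3% in the strongest, 92.9% in the second, 63.9% in the third and 14.0% in the weakest. The groups were cut by the pooled signal of these same libraries, so this fall follows largely from the cut.

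All 10 of the 7-mers that most exceeded the flanks held only A and T. The first, AAAATAT, was present in 360 member windows (30.6%), against 12.9% of flank windows and 21.5% of windows 180 bp upstream of unoccupied non-divergent promoters. It occurred at similar shares in divergent promoter windows (33.1%) and in distal windows (29.3%). TTTAAAA was found in 314 member windows (26.7%).

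Among 7-mers with a G or C, parts of the Dref site led, with ATCGATA in 137 member windows (11.7%), against 2.47% of flanks. TATCGATA, its own reverse complement, was present in 72 member windows (6.13%, interval 4.83 to 7.65%), against 88 divergent promoter windows (11.3%), 10 distal windows (0.441%), 11 upstream flanks (0.936%) and 2 downstream flanks (0.170%). It was in 130 unoccupied promoter windows (1.47%). Members with the Dref site were weak, with a median signal of 176.0, against 256.9 without it, and they lay a median of 73 bp upstream. The site was in 3.06% of the strongest of the 4 signal groups and 13.7% of the weakest. GGTCACAC, searched on both strands, was in 36 members (3.06%), against 43 divergent windows (5.52%) and 48 unoccupied promoter windows (0.543%). CGATA, the core bound by BEAF-32 and contained in TATCGATA, was in 392 members (33.4%), against 358 divergent windows (46%) and 2134 unoccupied windows (24.2%).

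CAGTGTA had the opposite profile. It was in 65 member windows (5.53%, interval 4.3 to 7%), against 35 of the 2350 flanks (1.49%). Its members had a median signal of 293.4, against 248.5 without it, and lay a median of 227 bp upstream. Distal windows were not used in ranking the 7-mers, and there it occurred in 187 of 2270 (8.24%, interval 7.14 to 9.45%), against 72 of 4540 of their flanks (1.59%). At divergent promoters it was in 18 of 779 (2.31%), against 21 of 1558 flanks (1.35%). The T-rich stretch before it recurred in distal windows, where T made up 55.4% of the 8 bases before the 7-mer, against 29.1% of the 8 bases after it. It was not seen in the few occurrences at divergent promoters (19, T 32.2% before and 26.97% after) or at downstream summits (12, T 31.3% before and 44.8% after).

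Other motifs differed in how they stood against their background. TATAAA was in 455 member windows (38.7%, interval 35.9 to 41.6%), against 31.8% of unoccupied promoter windows, 21.2% of upstream flanks and 20.3% of downstream flanks. CAGCTG was in 108 members (9.19%), against 7.23% of unoccupied windows and 9.79% of upstream flanks. CAGGTAG, the site of the early embryonic activator Zelda, was in 4 member windows (0.340%), against 125 unoccupied promoter windows (1.41%) and 20 upstream flanks (1.70%), and its share was 0.0857% without replicate 2. GAGAGAG, the GAGA factor repeat, was in 52 members (4.43%), against 419 unoccupied windows (4.74%), but without replicate 3 its share was 7.07%. Its sites were few at the summit itself, with 9 at -50 to 0 bp and 5 at 0 to 50 bp. There were 28 at -100 to -50 bp and 55 at 50 to 100 bp, then 59 at -150 to -100 bp and 60 at 100 to 150 bp. AGATAA, bound by GATA factors, was in 170 members (14.5%) and 1313 unoccupied windows (14.9%). CACACAC was in 45 members (3.83%), against 7.32% of upstream and 7.83% of downstream flanks, and its share was 6.32% without replicate 3.

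The starts themselves were read between 60 bp upstream and 40 bp downstream of the TSS. Members' starts seldom held a TATA box: TATAAA was in 95 of 1133 (8.38%, interval 6.84 to 10.2%), against 1797 of 8834 unoccupied starts (20.3%, interval 19.5 to 21.2%). Divergent starts had it in 11.6%. The initiator form TCAGTT was in 185 members' starts (16.3%), against 42 of 773 divergent starts (5.43%) and 1543 unoccupied starts (17.5%). The E-box CAGCTG was in 132 members' starts (11.7%, interval 9.84 to 13.7%), against 598 unoccupied starts (6.77%). It was in 16.8% of divergent starts. The Dref site was in 5.03% of members' starts, 11.9% of divergent and 3.5% of unoccupied ones. Each was searched on both strands, and members' starts include internal starts of genes whereas unoccupied ones are first starts.

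Members lay mostly between genes, a placement that the rule itself favours. A summit upstream of the first start of a gene lies outside that gene, and no share for other promoters was taken. Of the 1175 summits, 674 (57.4%) were intergenic, 385 (32.8%) intronic, 62 (5.28%) in a 5′ UTR, 30 in a noncoding exon, 21 in a 3′ UTR and 3 in coding sequence. The summit lay within the transcribed span of the gene whose TSS was nearest, and of no other gene, in 342 members (29.1%), and within that gene and another in 47 (4%). The nearest TSS was the first of its gene in 791 members (67.3%) and an internal one in 384 (32.7%). Members at internal starts had a median signal of 266.2 and lay 229 bp upstream, against 241.5 and 158 bp at first starts. A noncoding RNA started on the opposite strand within 500 bp of 64 members (5.45%), so these have starts on both strands. Another gene's TSS lay on the same strand within 500 bp of 33 members (2.81%).

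The gene next door was on the same strand for 611 members (52.0%), close to the 50.4% of all 10141 genes with a non-divergent first start. It was on the opposite strand for 445 members (37.9%), against 30.5% of those genes. For 117 members (9.96%) the TSS lay inside another coding gene, against 19.0%, and 2 members had no coding neighbour on that side. Members include internal starts and several per gene, whereas the genes count 1 first start each. The gap to the neighbour had a median of 809 bp on the same strand and 2816 bp on the opposite strand.

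The members belonged to 1070 genes, 7.67% of the 13945 protein-coding genes, and 979 of these had 1 member each. Rtnl1, a reticulon gene of the endoplasmic reticulum, had 6 members at 5 starts, the strongest with a signal of 1008. The phosphodiesterase gene dnc had 4 (strongest 921.0) and Svil had 4 (466.1). Ptpmeg2, shn, bun, Moe, pyd and l(3)neo38 had 3 each. By chromosome arm, members numbered 287 on 3R, 233 on 2R, 227 on 3L, 212 on 2L, 210 on X and 6 on chromosome 4. The genes and peaks of each arm were not counted, so this order is not a result about the members.

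The fullest of the longer gene lists was that of cytoplasmic ribosomal protein genes. A member was found at 27 of 92 (29.3%, interval 20.3 to 39.8%), against 7.67% of all protein-coding genes. Among those whose first start is non-divergent the share was 27 of 56 (48.2%, interval 34.7 to 62.0%), against 990 of 10141 genes (9.76%). The same rule found 20 of the genes in the replicate 2 list and 27 in the replicate 3 list. These summits lay close to the start, with 21 of 27 within 100 bp and a median of 27 bp upstream, and their windows had a mean GC content of 42.2%. RpL23A was the strongest, with 538.6 pooled, 229.7 in replicate 2 and 326.0 in replicate 3, at 99 bp upstream. RpS10b had 534.1 pooled, 166.4 in replicate 2 and 403.4 in replicate 3. RpL30 had 476.9 pooled, 190.3 in replicate 2 and 278.4 in replicate 3. The weakest, RpS10a, had 154.9, and none was among the 25 strongest members. The Dref site was in 7 of the 27 windows.

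Mitochondrial ribosomal protein genes had members at 2 of 73 (2.74%), mRpL41 and mRpL19 (217.7 pooled, 101.6 in replicate 2 and 129.4 in replicate 3). Only 20 of the 73 genes have a non-divergent first start, and 2 of those 20 (10%) is near the 9.76% of all such genes. With a TSS window of 200 bp, 9 of the 73 genes had a member. Translation factor genes had members at 7 of 54 (13.0%), against 7.67% of all protein-coding genes. They were led by eIF6 (1161), eEF1gamma (693.2) and eIF3c (406.7). Aminoacyl-tRNA synthetase genes had 1 of 33 (3.03%), AlaRS at 169.8, and 0 without replicate 3. Proteasome genes had 3 of 48 (6.25%), Rpn11 at 335.4, Rpn12 at 258.3 and Prosalpha2 at 157.0. Oxidative phosphorylation genes had 4 of 89 (4.49%), the strongest Cyt-c-p at 210.1, ND-13B at 199.0 and UQCR-C2 at 166.6. Vacuolar ATPase genes had 2 of 33 (6.06%), VhaPPA1-1 at 256.2 and Vha16-1 at 215.0. Among genes with a non-divergent first start, the share was 18.8% for translation factors, 8.33% for synthetases and 12% for the proteasome. It was 7.84% for oxidative phosphorylation and 9.52% for vacuolar ATPase, against the same 9.76% of all such genes.

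Glycolysis genes carried few but strong members. They stood at 5 of 12 genes (41.7%, interval 15.2 to 72.3%), against 7.67% of all protein-coding genes. Their median signal was 1495, against 250.3 over all members. Besides Gapdh2, Eno and Hex-A these were the lactate dehydrogenase gene Ldh (1018 pooled, 400.6 in replicate 2, 630.5 in replicate 3) and the phosphoglycerate kinase gene Pgk (404.1 pooled, 217.2 in replicate 2, 179.7 in replicate 3). All 5 summits lay between 175 and 337 bp upstream. When only the first TSS of each gene was used, 3 genes were counted.

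Signalling lists held small numbers, beside the 7.67% of all protein-coding genes. Hippo pathway genes had members at 5 of 16 (31.3%, interval 11 to 58.7%): the upstream activators kibra (313.1) and ex (192.6), the kinase gene hpo (184.4), Cka and dco. All but kibra were below the median of all members. Notch pathway genes had 4 of 20 (20%), E(spl)m3-HLH (767.6, a repressor gene that Notch activates), neur (639.4, a ubiquitin ligase for the ligand), numb (590.6, an inhibitor) and E(spl)m7-HLH (321.3). E(spl)m3-HLH differed between libraries, ranking 1310th in replicate 2 and 125th in replicate 3. Wnt pathway genes had 3 of 23 (13.0%; sgg 596.4, nkd 348.7 and Wnt6 177.7). Receptor tyrosine kinase and Ras genes had 3 of 25 (12%), and 5 without replicate 2, with the ligand gene spi at 739.7, htl at 161.2 and Raf at 147.8. TGF-beta genes had 1 of 19 (5.26%; shn, 507.9), and 2 in either library alone.

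Circadian clock genes had members at 4 of 13 (30.8%, interval 9.09 to 61.4%), against 7.67% of all protein-coding genes. These were the kinase gene sgg, the bZIP factor genes Pdp1 (581.9) and vri (204.4) and the kinase gene dco (149.9), and sgg and dco also count in the Wnt and Hippo lists. With the first TSS alone 1 gene was counted. Heat shock and chaperone genes had 6 of 35 (17.1%), with Hsp27 at 873.9, Hsp83 at 522.5 and Hsp22 at 374.4. Rab GTPase genes had 5 of 31 (16.1%), a list that also takes in Rab3-GAP, with Rab5 at 559.4, Rab11 at 283.1 and Rab26 at 179.8. Cytoskeleton and motor genes had 5 of 31 (16.1%), led by the myosin gene jar (545.4), Act5C (179.5) and the profilin gene chic (177.8). The chic summit ranked 1287th in replicate 2 and 12746th in replicate 3.

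Architectural and insulator protein genes had members at 5 of 20 (25%, interval 8.66 to 49.1%), against 7.67% of all protein-coding genes. The count was 3 without replicate 3 and 1 among the strongest 2288 peaks. They were led by the cohesin gene SMC1 (254.1), BEAF-32 (199.7) and the GAGA factor gene Trl (174.7). Polycomb and Trithorax group genes had 2 of 29 (6.90%), ph-p and osa (171.8), but 6 without replicate 3. C2H2 zinc finger protein genes had 20 of 233 (8.58%), near the 7.67% of all genes, with cbt at 987.5, CG18476 at 828.8 and chn at 670.0.

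Other lists had few members or none, to be read against the 7.67% of all protein-coding genes. Segmentation genes had 1 of 24 (4.17%; hry, 177.5). Ecdysone response genes had 1 of 18 (5.56%; E23), but 2 in either library alone and 4 with a 1000 bp TSS window. Hox genes had 0 of 8 (interval up to 36.9%), replication-dependent histone genes 0 of 111 (up to 3.27%) and chemoreceptor genes 0 of 179 (up to 2.04%). Histone genes lie in repeated copies, where reads may not be placed to 1 copy. A list's count says only that a summit met the rule, since genes at divergent promoters cannot have a member there.

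**Figure D5:**
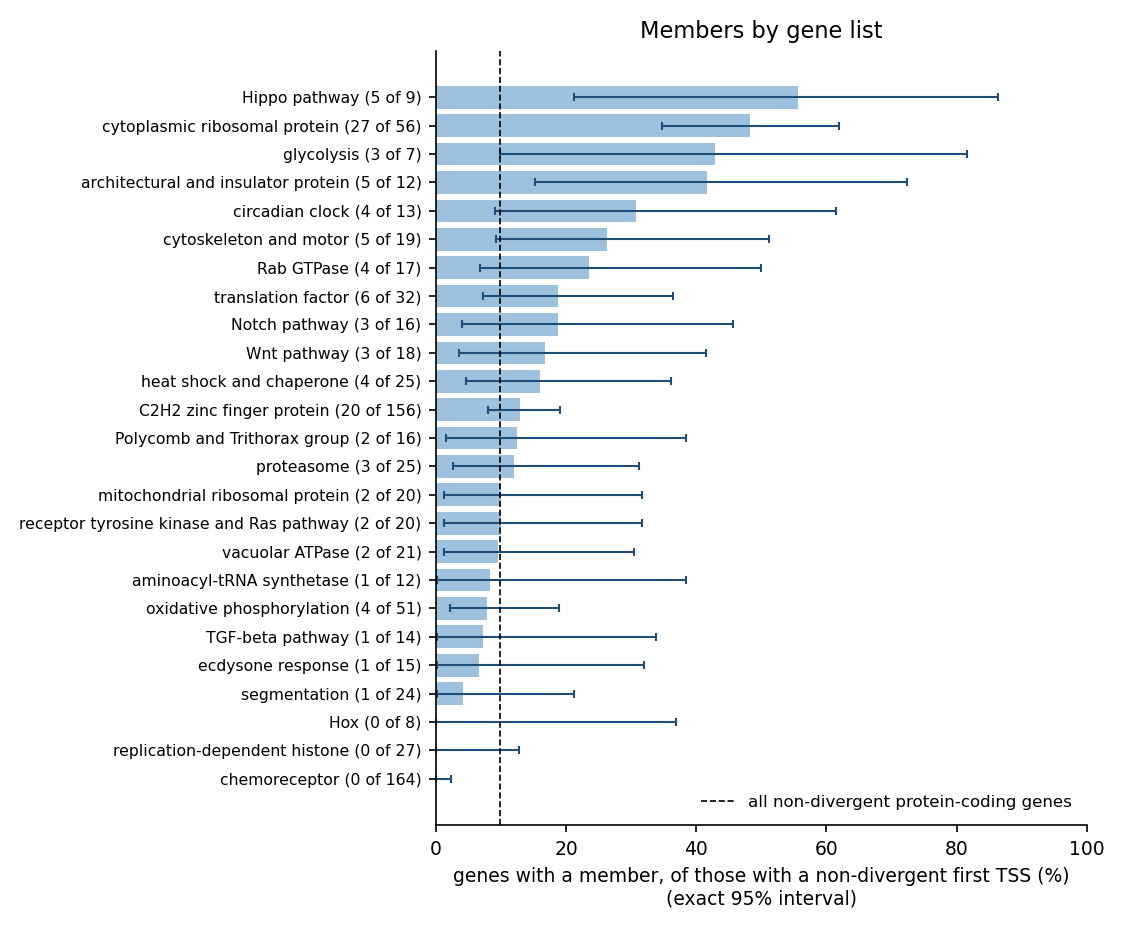
Share of genes with a member among the genes of each list whose first start is non-divergent (bars, %), with exact 95% intervals covering counting error only and the counts beside each name. The dashed line is the 9.76% of all 10141 such genes. The intervals of the Hippo pathway (5 of 9), cytoplasmic ribosomal protein (27 of 56), glycolysis (3 of 7) and architectural (5 of 12) genes lie above it. That of chemoreceptor genes (0 of 164) lies below it. The lists were chosen with earlier results of these data known, so an interval off the line is a description only. The glycolysis interval starts at 9.90%. Among the strongest 2288 peaks, the Hippo and the architectural list each held 1 gene.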

How the data were processed

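ChIP-seq peaks of GFP-tagged CG10147 were available as 1 list per replicate (30000 peaks each), a pooled list (30000) and an IDR list (4576), on assembly dm6 per the labels. The authors' deposited lists give a signal value per peak, called against a control, and a −log10 q-value, which no result uses. The caller, aligner, filters, IDR threshold and scale of the signal are not given in the sources used here. Depth per sample is unknown.

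Protein-coding TSSs were those of every transcript in FlyBase 6.54 (Ensembl release 115). Sequence came from the Release 6 genome, whose chromosome lengths match dm6. Summits within 100 bp counted as shared. Motifs were searched on both strands of 200 bp windows around each summit, with flanks centred 1000 bp away. Shares have exact Clopper-Pearson 95% intervals. No test over samples was made, since there is 1 group of 2 libraries, and IDR values pool both. The 25 strongest members, up to 3 genes per list, the 10 7-mers with the largest excess over flanks and the 3 summits nearest the 500 bp limit on each side were named. Other named items were chosen after their values were seen. The members and gene lists were chosen with earlier results of these data known. The member rule, the matching and the motif count were tested on simulated data with known answers. Python 3.11.15, pandas 2.3.3, numpy 2.4.6 and scipy 1.17.1 were used.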

Additional observations from a re-analysis of the deposited data

How the results depend on the processing

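The peak lists give no read depth, so depth limits cannot be stated, and signal has no replicate error. No paired analysis was possible because there is 1 group and no test over samples. Alternatives to the split at 100 bp and for CAGTGTA were chosen after seeing the data. The cause of each move below was not tested. The ratio of median signal of members to divergent promoters turned to 1.01 when an opposite-strand TSS within 1000 bp dropped a summit and 1.08 among the strongest 2288 peaks of the list. It was 0.834 with a 200 bp TSS window and 0.919 with the first TSS of each gene. With a 200 bp TSS window the median position was -105 bp, the ratio to the other peaks 1.01, the share in both replicate lists 88.3% and the Dref share 10.01%. With a 1000 bp window the median position was -224.5 bp and the Dref share 4.49%, and with first TSSs the Dref share was 7.85%. Those strongest peaks held 657 members at 616 genes, with 96.4% in both replicate lists, a Dref share of 3.20%, an AAAATAT share of 34.4% and a near to far signal ratio of 0.756. Matching within 50 bp gave 68.9% in both replicate lists and matching within 200 bp gave 96.1%. With 400 bp windows GC content was 37.7%, 5.51 points below flanks (a difference of -5.51), the Dref share 8.43% and the AAAATAT share 44.9%. With 100 bp windows the Dref share was 2.98% and the AAAATAT share 18.5%. Without summits in soft-masked repeats the AAAATAT share was 25.96% and the near to far signal ratio 0.663. Leaving out 1 library at a time gave an AAAATAT share of 26.04 to 31.6%, a GC difference between near and far members of 6.38 to 7.98 points and a near to far signal ratio of 0.665 to 0.758. Under the alternatives, 44 other values of the main comparisons were counted as unmoved, as were 21 with a library left out. These numbers do not show that the values are stable. Counts have no spread, and large changes in them still passed as unmoved. With first TSSs, members fell from 1175 to 841 and genes with a member from 1070 to 806. For medians, means and ratios, the spread came from the values with 1 library left out, so it cannot judge those same values.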
